A study of Mus musculus with 2 samples.

Results

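Macrophage marker genes were followed in pro-B cells of the mouse whose Setdb1 gene, for a histone methyltransferase, was intact or deleted. They were Lyz2, Mmp12, Lpl, Apoe, Cd68, Adgre1, Cd14, Itgam, Fcer1g and Tyrobp, each taken whatever its level. They were represented by 37 of the 93615 transcripts of the deposited table, and by 10 of the 36980 gene symbols that the table's transcripts could be given. The transcript of highest mean value stood for each gene.

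The RNA came from 2 cultures of pro-B cells, the early B cell precursors of the bone marrow. One library was Setdb1 C/C (undeleted alleles, column Wt of the table) and 1 was Setdb1 Δ/Δ (deleted, column Del). Both cultures carried bcl2-tg, a transgene for the survival factor BCL2, had been purified by flow cytometry from bone marrow, and had grown for 4 days with the cytokine interleukin 7 at 5 ng/µl. The labels give no age, sex or strain of the mice, no number of mice per culture and no agent or driver of the deletion. With 1 library per genotype, differences could not be checked against replicates and were not tested. Levels are in RPKM, the read number divided by transcript length and by library depth, and where a pair of values is given the C/C value comes first. Setdb1 itself measured 16.97 RPKM in C/C against 12.6 in Δ/Δ over a whole transcript, which does not tell how much of it lay outside the deleted stretch. Xist, the RNA of the inactive X chromosome, measured 0.094 RPKM in C/C against 23.7 in Δ/Δ, and the Y-linked gene Ddx3y 10.2 and 0.009 RPKM, so genotype and sex cannot be told apart for any gene.

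Macrophages are phagocytes that take up particles and lipoproteins, break them down in lysosomes and sense microbes through surface receptors. Their genes are opened largely by the transcription factor PU.1, which B cell precursors also carry at a lower level, together with C/EBP and AP-1 factors. The 10 genes cover secreted enzymes (Lyz2, Mmp12, Lpl), a lipid carrier and an endosomal glycoprotein (Apoe, Cd68), surface receptors (Adgre1, Cd14, Itgam) and the adaptors through which activating receptors signal (Fcer1g, Tyrobp). Lyz2, Itgam, Fcer1g and Tyrobp are also used by neutrophils and Fcer1g by mast cells, and Lpl and Apoe by several tissues.

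The libraries were those of B cell precursors by their leading markers. The sum over 12 pro-B cell markers was 4673 and 3388 RPKM. The sum over the 10 macrophage genes was 59.1 RPKM in C/C against 289 in Δ/Δ. In bulk RNA, a change in the share of cells of a type and a change in RNA per cell cannot be told apart.

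Sequence upstream of the start sites is shown for Mmp12, which has 2 annotated starts, for Lyz2 and Cd68, which had the largest ratios among members above 1 RPKM in both libraries, and for Itgam, whose whole transcripts differed least. The stretches come from RefSeq promoters (GRCm38.p6), run 5′ to 3′ toward the gene and end before the annotated start of the transcripts concerned. Capitals mark matches on either strand to the core GAGGAA bound by PU.1, to TGANTCA of AP-1 and to TTGCNNAA of C/EBP, and no matches overlapped in these stretches.
Mmp12, upstream start, chr9:7344147-7344380, plus strand: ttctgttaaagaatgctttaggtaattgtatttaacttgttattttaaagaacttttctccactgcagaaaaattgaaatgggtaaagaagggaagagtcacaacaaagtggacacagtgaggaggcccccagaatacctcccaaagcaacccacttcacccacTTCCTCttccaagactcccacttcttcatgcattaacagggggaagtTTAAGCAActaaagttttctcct
Mmp12, downstream start, chr9:7347124-7347373, plus strand: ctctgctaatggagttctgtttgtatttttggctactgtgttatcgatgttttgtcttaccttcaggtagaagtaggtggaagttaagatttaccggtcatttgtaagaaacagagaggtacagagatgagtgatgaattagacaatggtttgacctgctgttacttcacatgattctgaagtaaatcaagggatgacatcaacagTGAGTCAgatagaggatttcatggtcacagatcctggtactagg
Lyz2, chr10:117282322-117282522, minus strand: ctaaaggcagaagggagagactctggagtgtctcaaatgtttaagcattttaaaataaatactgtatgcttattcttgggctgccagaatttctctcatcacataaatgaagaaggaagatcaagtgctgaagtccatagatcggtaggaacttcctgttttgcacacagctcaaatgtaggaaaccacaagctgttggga
Cd68, chr11:69666171-69666420, minus strand: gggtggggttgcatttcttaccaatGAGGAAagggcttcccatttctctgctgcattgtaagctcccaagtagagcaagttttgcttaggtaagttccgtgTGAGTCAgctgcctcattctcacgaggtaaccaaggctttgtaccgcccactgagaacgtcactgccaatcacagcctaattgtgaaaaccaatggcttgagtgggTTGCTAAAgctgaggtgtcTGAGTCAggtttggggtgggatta
Itgam, chr7:128062390-128062639, plus strand: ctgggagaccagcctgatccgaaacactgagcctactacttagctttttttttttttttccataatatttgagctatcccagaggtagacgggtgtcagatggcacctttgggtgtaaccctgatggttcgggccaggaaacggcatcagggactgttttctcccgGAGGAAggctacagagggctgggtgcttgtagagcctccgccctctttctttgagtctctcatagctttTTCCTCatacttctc
RefSeq promoters were at hand for 6 of the 10 genes, in 9 windows of 250 bases before a start (1 for Lyz2, Cd68, Itgam and Fcer1g, 2 for Mmp12, 3 for Apoe). Those of Lpl, Adgre1, Tyrobp and Cd14 are not shown. GAGGAA was present on either strand in 5 of the 9 windows, from 4 genes (Apoe, Cd68, Itgam and Mmp12), and in 23.3% of all 32817 promoters of that length. TGANTCA was present in 2 windows (Cd68 and the downstream start of Mmp12) against 6.75% of all promoters, and TTGCNNAA in 2 (Cd68 and the upstream start of Mmp12) against 9.57%. The E-box CACGTG, bound by the lysosomal regulators of the MITF and TFE family, was in none of the 9 and in 6.02% of all. These are matches of letters and not sites shown to be bound.

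Macrophage genes were higher in the Δ/Δ library, by amounts that ran from 1.37-fold to 61.7-fold. A gene was called higher or lower when log2((Δ/Δ + 0.5) / (C/C + 0.5)) of its RPKM was at least 1 or at most -1, a fixed rule of size in place of a test. By this rule 8 of the 10 were higher and 0 were lower, and Cd14 and Itgam did not pass. Of 12556 genes that reached 1 RPKM in either library, 6.28% were higher and 6.66% lower by the same rule. Lyz2, Apoe, Cd68, Itgam and Tyrobp reached 1 RPKM in both libraries. Mmp12, Lpl, Adgre1 and Fcer1g reached it in Δ/Δ alone, so their place among the genes at 1 RPKM came from the library in which they were high, and Cd14 reached it in neither.

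A second measure leaves out the added 0.5, which understates the change of low genes. It is the plain ratio of read density, with 0 reads in a library set at 3. It was taken for genes with at least 20 reads in both libraries together, a minimum that all 10 passed. By this measure 9 of the 10 were at least 2-fold higher in Δ/Δ and 0 were 2-fold lower, against 11.4% and 12.0% of 17373 genes. At least 4-fold higher were 7 of the 10, against 5.48% of these genes. Among protein-coding genes the shares were 10.7% at 2-fold and 3.07% at 8-fold, and 3 of the 10 (Lyz2, Mmp12 and Lpl) were at least 8-fold higher. Over the 10 genes the log2 ratio of read density had a median of 2.74, and over all 17373 one of -0.10. The plot of levels by library shows the values.

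**Figure D1:**
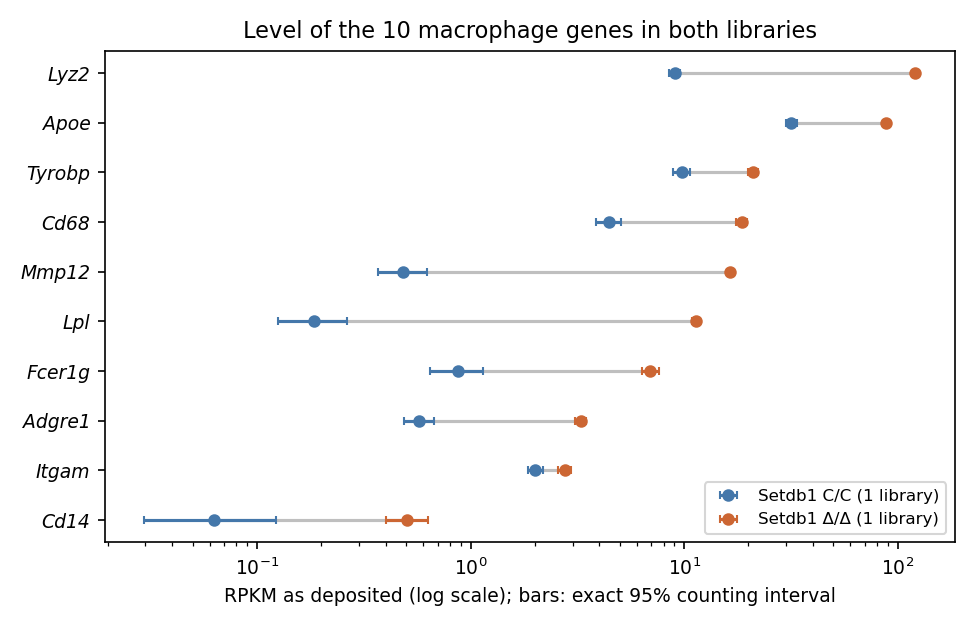
Level of each of the 10 macrophage genes (RPKM, log axis) in the C/C library (blue) and the Δ/Δ library (orange), ordered by the Δ/Δ level. Bars are exact 95% Poisson intervals that cover counting error only. Itgam, at 2.01 and 2.75 RPKM, has the shortest line and Lpl, at 0.185 and 11.4 RPKM, the longest.

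The secreted enzymes differed most. Lyz2 encodes lysozyme M, which cleaves bacterial cell walls (ENSMUST00000092163, GRCm38 chromosome 10, 117277331 to 117282321, minus strand). It measured 9.01 RPKM in C/C against 120 in Δ/Δ, from 2023 and 30516 reads, a ratio of 13.3 (95% counting interval 12.5 to 14.2). Lyz1, its close relative and neighbour, used by Paneth cells of the gut, measured 0.093 and 0.532 RPKM, so few reads were placed on the copy in either library. How reads that match both copies were divided is not given, and single values of the pair are uncertain to that extent.

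Mmp12, macrophage elastase, cleaves elastin in the extracellular matrix. Its transcript of highest level (ENSMUST00000120655, chromosome 9, 7344397 to 7358464, plus strand) stood at 0.480 RPKM in C/C against 16.5 in Δ/Δ, from 119 and 4618 reads, a ratio of 34.3 (interval 26.3 to 44.7). It ranked 14 among the 12556 genes by the size rule's log2 ratio, at 4.11. All 7 listed transcripts of the gene were higher in Δ/Δ. The short transcript ENSMUST00000150167, annotated from the upstream start, went from 21 to 659 reads (ratio 27.7, interval 14.6 to 53.6), and ENSMUST00000138220, annotated from the downstream start, from 1 to 239 reads (ratio 211, interval 18.7 to 4220). The interval of the latter is wide because it rests on 1 read, and the 2 intervals overlap.

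The listed level of Mmp12 depends on the transcript chosen, and the ratio of its longer forms much less so. The protein-coding form ENSMUST00000005950 is 1547 bases longer than the decay-annotated form ENSMUST00000127722 but holds nearly the same reads, 120 each in C/C and 4907 against 4908 in Δ/Δ. It is therefore listed at 7.04 RPKM in Δ/Δ where the shorter form is listed at 12.3 RPKM. The ratio of both was 36.1.

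Lpl encodes lipoprotein lipase, which frees fatty acids from circulating triglycerides. Its transcript of highest level (ENSMUST00000168401, chromosome 8, 68880555 to 68907448, plus strand) is annotated as a target of nonsense-mediated decay and measured 0.185 RPKM in C/C against 11.4 in Δ/Δ, from 60 and 4191 reads. The ratio was 61.7 (interval 43.1 to 91.7), the largest of the 10 genes and rank 27 of 13820 protein-coding genes with at least 20 reads. The protein-coding form ENSMUST00000015712 gave a like picture, with 0.103 and 6.92 RPKM and a ratio of 67.5 (interval 48.6 to 96.6). The retained-intron form ENSMUST00000101463, of the gene's 5′ end, measured 0.036 and 2.43 RPKM.

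Apoe and Cd68 were both well above 1 RPKM in C/C. Apoe encodes apolipoprotein E, which carries cholesterol out of cells. The short form (ENSMUST00000172808, chromosome 7, 19696844 to 19698247, minus strand) stood at 31.8 RPKM in C/C against 87.9 in Δ/Δ, and the ratio was 2.77 (interval 2.59 to 2.95). Apoe was thus the most abundant of the 10 in the undeleted cells. The 4-exon form ENSMUST00000003066 measured 25.7 and 69.3 RPKM, and over all 10 listed transcripts the ratio ran only from 2.67 to 2.89. Cd68 encodes macrosialin, a heavily glycosylated protein of late endosomes. Its transcript of highest level (ENSMUST00000154124, chromosome 11, 69664306 to 69666062, minus strand) measured 4.42 and 18.6 RPKM, a ratio of 4.21 (interval 3.65 to 4.88), and the 2 protein-coding forms both gave 4.19.

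The surface receptors were the lowest group by summed level. Adgre1 encodes F4/80, the adhesion receptor most used to mark mouse macrophages (ENSMUST00000004850, chromosome 17, 57358714 to 57483523, plus strand). It measured 0.572 RPKM in C/C against 3.27 in Δ/Δ, from 305 and 1976 reads, a ratio of 5.72 (interval 4.80 to 6.81). Cd14 encodes the co-receptor that hands lipopolysaccharide to TLR4. It measured 0.063 RPKM in C/C against 0.504 in Δ/Δ, the lowest level of the 10 in both libraries. The read numbers behind it, 18 and 160, are approximate, since the C/C value lay 0.358 of a read from a whole number. Its read density ratio of 7.85 (interval 3.93 to 17.8) was high, but with the added 0.5 the log2 ratio was 0.83 and short of the rule. With an added 0.1 RPKM it passed, at 1.89.

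Itgam encodes CD11b, the α chain of the integrin Mac-1. Its transcript of highest level (ENSMUST00000106240, chromosome 7, 128062683 to 128117531, plus strand) stood at 2.01 RPKM in C/C against 2.75 in Δ/Δ, with a ratio of 1.37 (interval 1.23 to 1.52) and a log2 ratio of 0.37. It was the member that differed least. Short transcripts listed at the 5′ end of the gene differed more than its longer forms. The short transcript ENSMUST00000119696, which ends in a variant of exon 4, went from 28 to 124 reads, a ratio of 3.91 (interval 2.16 to 7.56). ENSMUST00000156593, also of the 5′ end, went from 62 to 182 reads, a ratio of 2.59 (interval 1.71 to 4.03).

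When the reads of ENSMUST00000156593 were taken from those of the longest form of Itgam, ENSMUST00000064821, 1332 reads in C/C and 1957 in Δ/Δ remained, a ratio of 1.30 (interval 1.18 to 1.43). The counting interval of the remainder thus lies below those of both 5′ transcripts. The subtraction takes every read of the short transcript to be counted in the longest form too, which was not checked. In C/C the 5′ transcripts were listed at 0.485 and 1.04 RPKM, under the 1.75 RPKM of the longest form, and in Δ/Δ at 1.90 and 2.70 RPKM beside 2.36 RPKM. In GENCODE M21 the exons of Itgam overlap those of Gm49368, a gene model on the same strand that shares its 5′ exons and runs past its end. Reads of the overlapping models cannot be told apart here, and the part of such reads in the smaller ratio of the whole gene was not tested.

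The adaptors Fcer1g and Tyrobp are small membrane proteins whose ITAM motif recruits the kinase SYK. Fcer1g, the common γ chain of Fc receptors (ENSMUST00000079957, chromosome 1, 171229572 to 171234365, minus strand), stood at 0.869 RPKM in C/C against 6.95 in Δ/Δ, from 100 and 905 reads, a ratio of 7.99 (interval 5.96 to 10.9). Tyrobp, the adaptor DAP12 (ENSMUST00000032800, chromosome 7, 30413788 to 30417577, plus strand), measured 9.73 and 21.01 RPKM, a ratio of 2.16 (interval 1.94 to 2.41). With a log2 ratio of 1.07 it was the member nearest above the rule. Thus the adaptor that was already at a level like that of Lyz2 in C/C had the smaller ratio, and the adaptor that was low in C/C the larger.

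**Figure D2:**
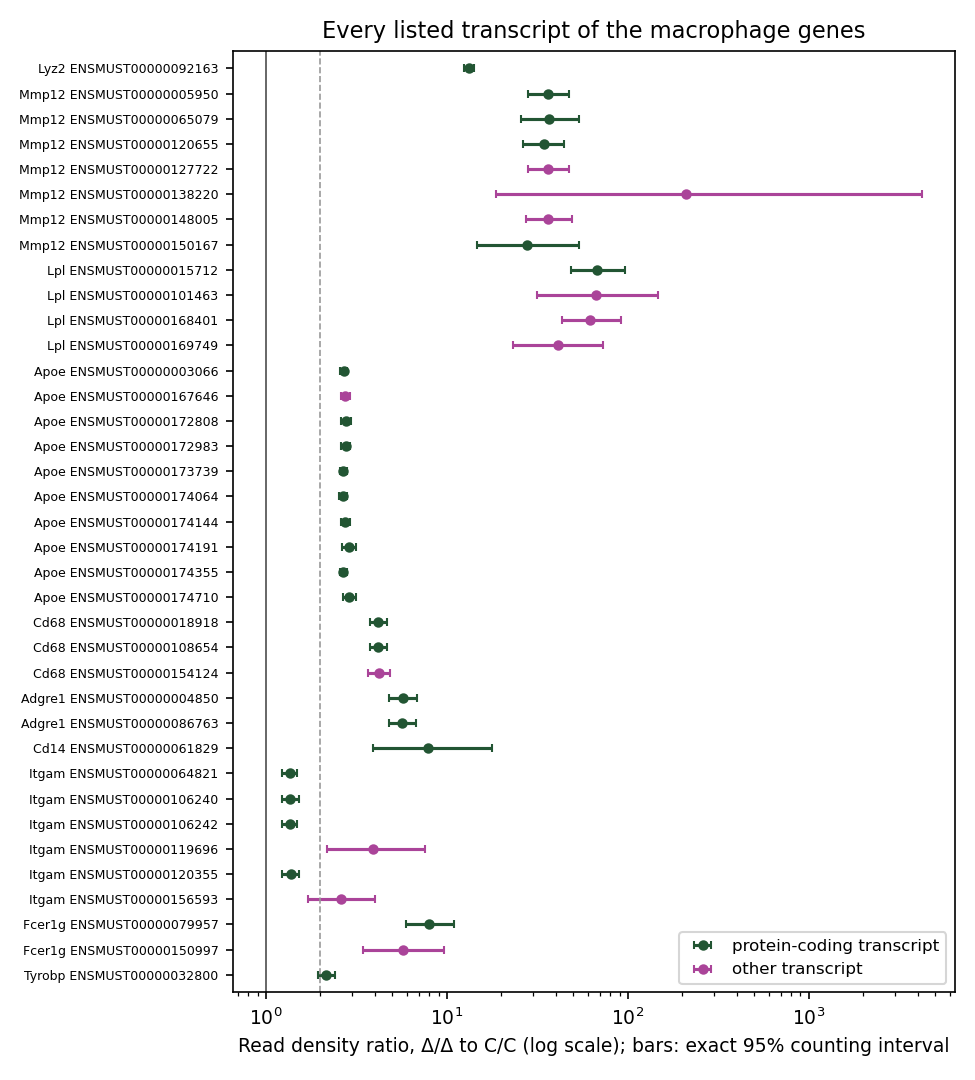
Ratio of read density, Δ/Δ to C/C (log axis), for each of the 37 listed transcripts of the 10 genes, with exact 95% intervals for counting error. Green marks protein-coding transcripts and purple the others, the solid line is a ratio of 1 and the dashed line a ratio of 2. Transcripts of a gene share exons and reads, and the ratios of a gene lie close together in Apoe, Cd68 and Adgre1 and apart in Itgam, where ENSMUST00000119696 (3.91) and ENSMUST00000156593 (2.59) lie above the 4 protein-coding forms (1.35 to 1.37).

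The order of the levels was different in the libraries. In C/C it was Apoe, Tyrobp, Lyz2, Cd68, Itgam, Fcer1g, Adgre1, Mmp12, Lpl and Cd14. The counting intervals overlapped between the neighbours Tyrobp (8.86 to 10.6 RPKM) and Lyz2 (8.47 to 9.59 RPKM), and between Adgre1 (0.487 to 0.673 RPKM) and its neighbours Fcer1g (0.645 to 1.15 RPKM) and Mmp12 (0.370 to 0.623 RPKM). In Δ/Δ it was Lyz2, Apoe, Tyrobp, Cd68, Mmp12, Lpl, Fcer1g, Adgre1, Itgam and Cd14. There the intervals of no neighbours overlapped, and Tyrobp (19.8 to 22.3 RPKM) and Cd68 (17.6 to 19.8 RPKM) came closest to each other. The intervals do not cover the choice of transcript, on which the order depends. In Δ/Δ the protein-coding forms ENSMUST00000005950 of Mmp12 (7.04 RPKM) and ENSMUST00000015712 of Lpl (6.92 RPKM) stood about level with Fcer1g (6.95 RPKM). Lyz2 made up 15.2% of the summed level of the 10 in C/C and 41.5% in Δ/Δ, while Apoe made up 53.8% and 30.4% and Tyrobp 16.5% and 7.27%. Without Lyz2 the sum of the other 9 was 50.1 and 169 RPKM, a ratio of 3.37 against 4.89 with it.

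**Figure D3:**
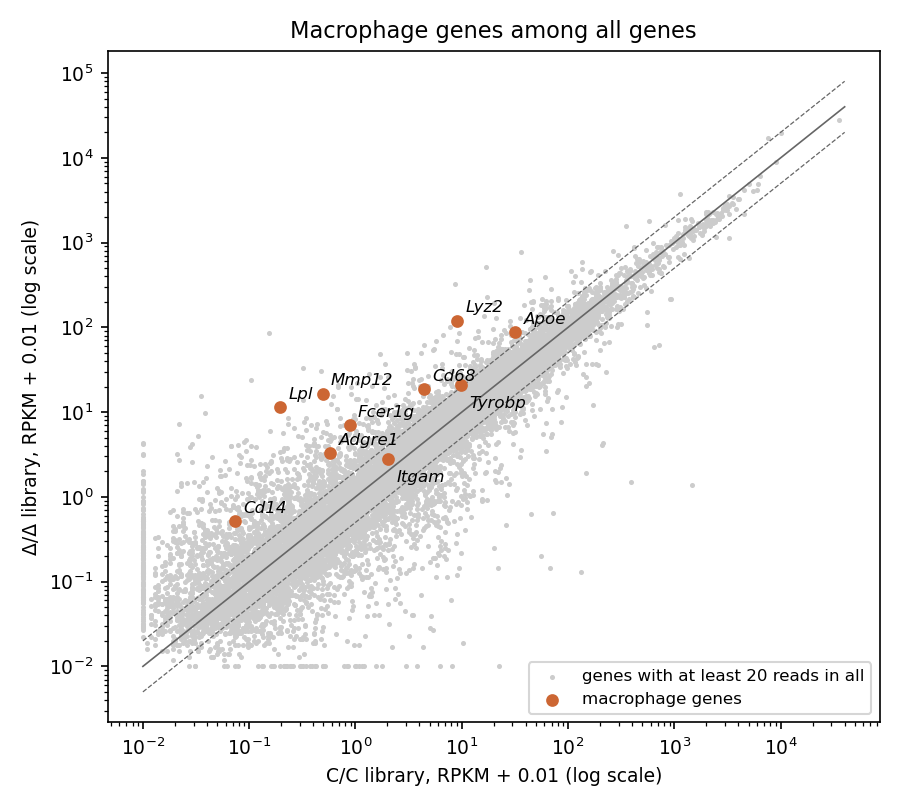
Each of the 17373 genes with at least 20 reads in all (grey) by its level in C/C and in Δ/Δ, as RPKM + 0.01 on log axes, with the 10 macrophage genes in orange. The solid line marks equal levels and the dashed lines a 2-fold difference. Itgam lies between the dashed lines and the other 9 above them, Tyrobp closest to the line.

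Among 8331 protein-coding genes that reached 5 RPKM in either library, those with a read density ratio nearest to that of Lyz2, the member with the most reads, were the mitochondrial genes mt-Nd3 (17.2 and 231 RPKM) and mt-Nd6 (2.03 and 25.8 RPKM), 1810022K09Rik (4.40 and 61.3 RPKM), Tlr7 (1.01 and 14.4 RPKM) and Resf1 (6.64 and 81.2 RPKM). With 2 libraries this likeness is that of a single ratio, and reads of mitochondrial genes can also match nuclear copies.

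Other macrophage markers, from a list of 30 genes, were higher in Δ/Δ as well. Of the 28 with at least 20 reads, 24 were at least 2-fold higher in read density and 0 lower, with a median log2 ratio of 3.51. Of the 18 at 1 RPKM or more, 14 were higher by the size rule and 0 lower. Only Csf1r, Lgals3, Gpnmb, Sirpa, Cybb and Ctss reached 1 RPKM in both libraries, and of these Lgals3 and Gpnmb alone passed the rule. The others reached it in Δ/Δ alone, so their place came from the library in which they were high. Counts for the lists below are likewise of genes with at least 20 reads. Genes with fewer than 20 reads in C/C entered such counts only with their Δ/Δ reads. Gpnmb, a glycoprotein of phagocytes and melanosomes, measured 1.70 and 25.7 RPKM, and the chemokine genes Ccl9 (0.147 and 6.02 RPKM) and Ccl6 (0.317 and 7.58 RPKM) stood next to it. The complement gene C1qa, a defining macrophage product, measured 0.068 and 4.09 RPKM, a ratio of 60.4, while C1qb measured 0.043 and 1.76 RPKM and C1qc 0.073 and 2.96 RPKM. Csf1r, the receptor for the growth factor of macrophages, measured 4.04 and 7.17 RPKM and did not pass the rule. The efferocytosis receptor gene Mertk (0.014 and 0.441 RPKM) and the Fc receptor gene Fcgr1 (0.014 and 0.502 RPKM) were low in both libraries, and Cd163 (listed at 0 and 0.005 RPKM) and Vsig4 (listed at 0 and 0.014 RPKM), of tissue-resident macrophages, were at or near 0 in both. Spic (0 and 47 reads), Timd4 (0 and 23 reads) and Mrc1 (0.201 and 1.07 RPKM) were higher in read density from low levels. Siglec1 (0.171 and 0.286 RPKM) was less than 2-fold higher.

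Most counted genes of a list of receptors that signal through Fcer1g and Tyrobp were higher in Δ/Δ. Of 23 listed genes, 22 were in the table and 18 had at least 20 reads, of which 15 were at least 2-fold higher in read density and 1 lower. Among the 15, Clec5a, Cd300lb and Sirpb1a had 0 reads in C/C, Treml4 and Fcgr4 3 each, Fcgr1 6 and Clec4e 8. They reached 20 reads through Δ/Δ alone, so their place in the count came from that library. Trem2 and Fcgr1 are also in the list of macrophage markers. Hcst, counted among the 15, encodes not a receptor but the related adaptor DAP10. It lies tail to tail with Tyrobp, 0.127 kb away on the other strand, and measured 2.29 and 15.7 RPKM. Trem2, a lipid-sensing receptor of macrophages that pairs with Tyrobp, measured 0.183 and 3.40 RPKM, and Siglech, of plasmacytoid dendritic cells, 0.850 and 5.64 RPKM. Syk, the kinase that both adaptors recruit and that B cells use as well, was the lower one, at 182 RPKM in C/C against 70.2 in Δ/Δ (chosen after its value was seen).

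Partners of CD14 and of CD11b differed in both directions. Of 11 genes of lipopolysaccharide sensing and related receptors, 2 were at least 2-fold higher in read density and 2 lower, and the median log2 ratio was 0.09. For this and the lists below, the shares over all 17373 genes with at least 20 reads were 11.4% higher and 12.0% lower. With so few genes, 2 each way is not far from these shares. Ly96, which encodes MD-2, the lipopolysaccharide-binding partner of TLR4, was higher, at 0.709 and 3.26 RPKM. Ly86 (10.9 and 22.2 RPKM), a relative of MD-2, fell just short of the size rule, and the adaptor gene Tirap (7.69 and 3.76 RPKM) did not pass it. Tlr4 (3.93 and 6.53 RPKM) did not pass either. Of 10 genes of the leukocyte integrins, their ligands and their activators, 3 were higher in read density and 2 lower, with a median of 0.41 beside 0.45 for Itgam itself. Itgb2, the β chain that CD11b needs to reach the surface, was about level at 30.2 and 28.8 RPKM. Itgal, the α chain of LFA-1, was higher (2.02 and 6.10 RPKM), and Icam2, a ligand of it, was lower (49.4 and 20.3 RPKM). Tln1, talin, measured 41.1 and 55.1 RPKM.

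Relatives of Mmp12 differed in both directions. Among 20 metalloproteinases and their inhibitors 9 were at least 2-fold higher in read density and 5 lower (median 0.34). Higher by the size rule were Timp3 (0.460 and 2.93 RPKM) and Timp2 (0.269 and 1.6 RPKM), inhibitors of the enzymes, and the neutrophil collagenase Mmp8 (0.129 and 1.57 RPKM). Of the lysozyme relatives, Lalba, which encodes the milk protein α-lactalbumin, measured 0.312 and 33.5 RPKM (ratio 107, interval 68.5 to 170), a larger ratio than that of Lyz2. Of 7 relatives of F4/80 and CD68, 1 was 2-fold higher in read density and 2 lower. Adgrg3, an adhesion receptor, was lower by the size rule (13.6 and 5.81 RPKM), and Adgre5 (CD97) measured 128 and 78.8 RPKM.

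Lipid-handling partners of LPL and APOE were mixed. Of 24 genes, 6 were at least 2-fold higher in read density and 2 lower, with a median of 0.18. Fabp4, a fatty acid carrier of macrophages and adipocytes, measured 0.221 and 7.30 RPKM. The oxysterol receptor gene Nr1h3 (0.286 and 1.65 RPKM) and the scavenger receptor gene Cd36 (9.37 and 23.9 RPKM) were also higher by the size rule. Abcg1, which passes cholesterol on to lipoproteins, measured 40.3 and 49.8 RPKM. Gpihbp1, which anchors LPL to capillary walls, was at or near 0 (listed at 0 and 0.013 RPKM). Lipc, hepatic lipase, went the other way from Lpl, at 0.968 and 0.008 RPKM (chosen after its value was seen).

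Most genes next to the members on the chromosome did not pass the size rule, which understates the change of low genes. Of the 20 nearest protein-coding genes, 1 on each side of each member, 9 reached 1 RPKM, of which 1 was higher by the size rule and 0 lower. The shares over all 12556 genes at 1 RPKM were 6.28% and 6.66%. The 3 with a log2 ratio of at least 1 at any level were Hcst beside Tyrobp, Itgax beside Itgam (0.094 and 0.997 RPKM) and Mmp3 beside Mmp12 (listed at 0 and 0.996 RPKM). In read density Lyz1 beside Lyz2 was higher too, from 20 and 130 reads (ratio 5.74, interval 2.93 to 12.5). The ratios of Hcst and Itgax were 6.85 and 10.6, and Mmp3 had 0 and 347 reads. Those of Mmp13 beside Mmp12 (1.07) and of Tomm40 (1.36) were under 2. Tomm40 beside Apoe (43.5 and 59.0 RPKM), Eif4a1 beside Cd68 (438 and 580 RPKM) and Ints10 beside Lpl (18.3 and 21.6 RPKM) did not pass.

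Markers of several other cell types were higher in the same library. Counts below are of genes with at least 20 reads, called at 2-fold in read density, and sums are over all genes of a list. All 14 neutrophil markers with at least 20 reads were at least 2-fold higher in read density, and the sum of the 16 listed was 8.12 RPKM in C/C against 106 in Δ/Δ. Among the 14, Mpo and Elane had 0 reads in C/C, Ctsg 2, Prtn3 8, Csf3r 11 and Chil3 19. They reached 20 reads through Δ/Δ, so their place in the count came from that library. S100a8 measured 0.463 and 30.8 RPKM, S100a9 5.44 and 56.2 RPKM and Chil3, also made by macrophages, 0.072 and 2.51 RPKM. The granule protein genes Ngp (0.342 and 3.57 RPKM), Lcn2 (0.218 and 2.72 RPKM), Ltf (0.227 and 2.65 RPKM) and Camp (0.371 and 1.69 RPKM) were also higher by the size rule. Mpo (0 and 202 reads) and Elane (0 and 41 reads), of early granulocytes, were higher in read density at levels under 1 RPKM, and Ly6g had 2 and 7 reads, too few to be counted. Of 11 dendritic cell markers 7 were higher and 0 lower, with sums of 395 and 411 RPKM that rest on Irf8, Tcf4 and Bst2, which B cells share. Klk1 (0.054 and 2.10 RPKM), Clec10a (0.173 and 2.12 RPKM), Ccr9 (0.116 and 1.92 RPKM) and Siglech were higher by the size rule, and Xcr1 (0.132 and 0.081 RPKM) and Clec9a (listed at 0 and 0.081 RPKM) were near 0. Of 5 mast cell and basophil markers 4 were higher and 1 lower, with sums of 0.466 and 2.22 RPKM. Prss34, a basophil protease gene, had 0 and 274 reads and reached 1.16 RPKM in Δ/Δ, Mcpt8 had 0 and 75 reads and Cpa3 1 and 67 reads. They and Gata2 (0 and 55 reads) reached 20 reads through Δ/Δ alone, so their place in the count came from that library. The mast cell protease genes Tpsb2 and Cma1 were listed at 0 in both libraries. Of 12 erythroid and platelet markers 10 were higher and 1 lower, with sums of 9.44 and 78.0 RPKM.

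Osteoclast markers had 3 of 6 higher and 0 lower, with sums of 21.7 and 19.2 RPKM that rest mostly on Acp5 (20.1 and 10.5 RPKM). Ctsk, cathepsin K, was higher (0.301 and 5.02 RPKM), as was the proton pump gene Atp6v0d2 (0.132 and 2.41 RPKM), and Calcr was listed at 0 in both. Stromal and adipocyte markers had 4 of 8 higher and 0 lower, with sums of 0.517 and 1.37 RPKM. The higher ones were Vcam1 (8 and 440 reads), Dcn (12 and 111 reads), Col3a1 (0 and 59 reads) and Pdgfra (0 and 23 reads), all under 1 RPKM. All of them reached 20 reads through Δ/Δ alone. Plin1 and Lum were listed at 0 in both and Adipoq in Δ/Δ. NK cell markers had 2 of 5 higher and 0 lower, with sums of 2.12 and 2.44 RPKM. The higher ones were Klrd1 (5 and 80 reads) and Gzmb (3 and 42 reads), which both reached 20 reads through Δ/Δ alone. Ncr1 was listed at 0 in both. Among 12 pro-B cell markers 4 were at least 2-fold lower and 0 higher (median -0.53). The part of other cell types in the values of the macrophage genes was not tested.

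**Figure D4:**
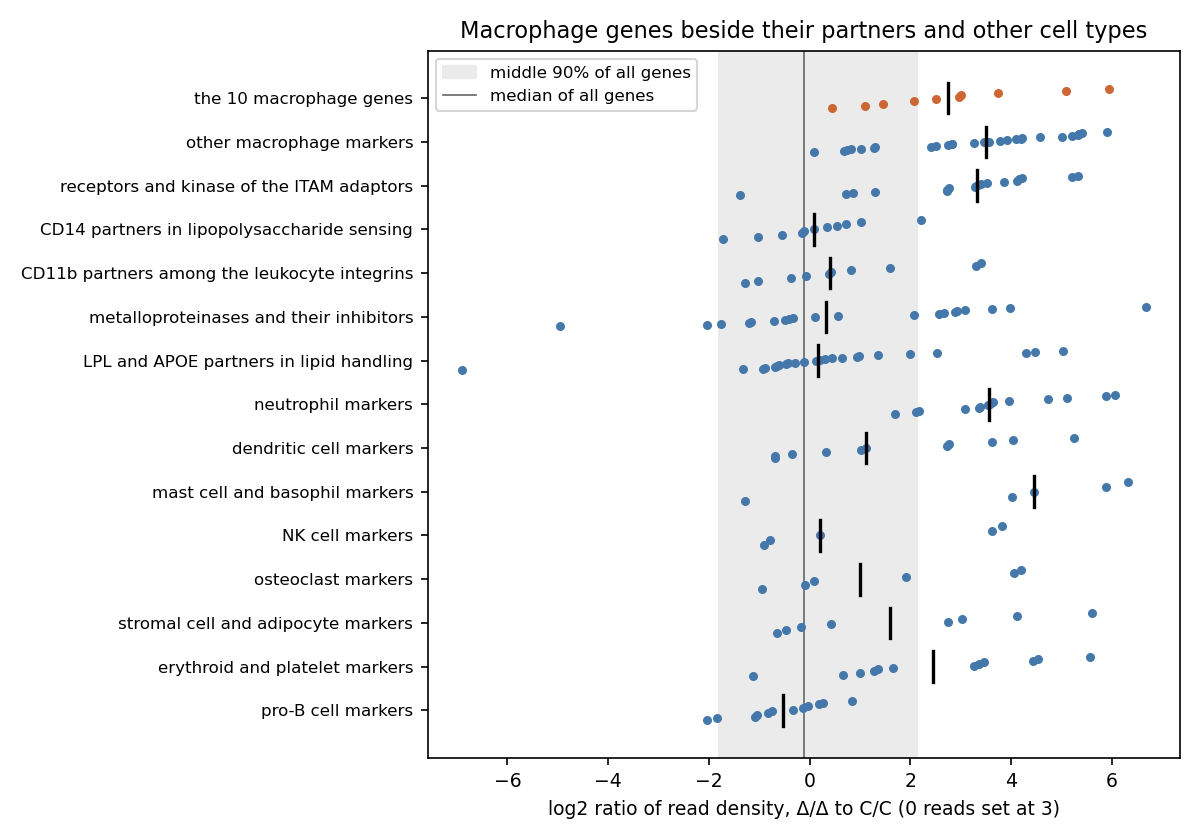
Log2 ratio of read density, Δ/Δ to C/C, of every gene with at least 20 reads in the 10 macrophage genes (orange) and in the other lists except the small ones of lysozyme and of F4/80 and CD68 relatives (blue, 1 point per gene), with black bars at the medians. The grey band holds the middle 90% of all such genes (-1.81 to 2.14) and the thin line their median of -0.10. The macrophage genes (median 2.74), other macrophage markers (3.51), receptors of the adaptors (3.32) and neutrophil markers (3.57) have medians right of the band. The erythroid and platelet median (2.46) lies there too. The mast cell and basophil median (4.46) is over 5 genes and is the value of Mcpt8, whose 0 reads in C/C were set at 3. It therefore depends on that setting. The medians of partners of CD14 (0.09), CD11b (0.41) and LPL and APOE (0.18) lie within the band.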

How the data were processed

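RNA freed of ribosomal RNA was sequenced as 101 bp paired-end libraries, per the labels' protocols. The authors deposited 1 RPKM value per transcript and library, rounded to 3 decimals. Tools are listed as bedtools and TopHat2 (version 2.0.9), and the builds as mm10 and mm9, per the submitters' processing notes. Which build and annotation the table used, and how shared reads were treated, was not given in the sources used here. Per the labels, libraries were made with a TruSeq RNA kit, which does not mark strand.

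Transcripts were matched by identifier to GENCODE M21 (GRCm38), which succeeded for 89571 of 93615 (95.7%). The other 4044 were left out. RPKM times exonic length was a whole multiple of a step, which put the depth of C/C at 170.6 M reads and that of Δ/Δ at 193.3 M. Of low values on transcripts of 100 to 800 bases, 96.5% and 95.8% lay within 0.1 of a whole read. Mates were apparently counted singly (662 transcripts with 2 reads against 601 with 1 in C/C), so exact 95% intervals took 2 reads as 1 fragment. They cover counting error only. At these depths 3 reads on 2 kilobases make 0.00879 RPKM (C/C) and 0.00776 RPKM (Δ/Δ). Genes at 0 reads in a library were set at 3 reads in all ratios of read density, and so in the counts, shares and medians drawn from them.

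The members and gene lists were chosen with earlier results of these data known. Named genes are all 10 members, up to 3 of each other list with the largest log2 ratio at 1 RPKM or more, the 5 genes nearest to the member with the most reads, the cell type's defining markers, and further genes (among them neighbours, and genes of lists beyond these 3) chosen after their values were seen. Some genes of the lists are counted but not reported here by name. The recovery of library depth was tested on simulated data. Python 3.11.15, pandas 2.3.3 and SciPy 1.17.1 were used.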

Additional observations from a re-analysis of the deposited data

How the results depend on the processing

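With 1 library per genotype no library can be left out, and no paired analysis was possible because each group has 1 sample. Of the 10 genes 8 were higher by the size rule, and 7 to 9 under every other setting tried except the 4-fold rule, which left 4 (Lyz2, Mmp12, Lpl and Fcer1g). The 7 were all of the 7 members at 5 RPKM or more, and among the 9 with a mean of at least 0.5 RPKM the number was 8. None was lower under any setting. The median log2 ratio of 1.89 was 2.19 with a pseudocount of 0.1 RPKM and 1.65 with 1 RPKM, 2.44 over the 7 members at 5 RPKM or more, 1.96 over the 9 with a mean of at least 0.5 RPKM, 1.98 after centring on the median of all measured genes (-0.09), 1.96 after scaling to equal RPKM sums that leave out the 20 most abundant genes, 2.06 with all transcripts of a gene summed, 1.86 with the longest transcript and 2.74 as read density. Tyrobp stayed near the rule throughout (1.04 to 1.17). Cd14 was the one member that crossed the rule (0.50 to 2.97), and Itgam did not pass under any setting (0.32 to 0.69). Depth limits the C/C values of Cd14 (18 reads) and Lpl (60 reads) most.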
